A study of Mus musculus with 17 samples.

Results

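The nuclear control of mitochondrial biogenesis was examined through 10 genes, chosen by their known roles: the coactivators Ppargc1a and Ppargc1b, the estrogen-related receptors Esrra, Esrrb and Esrrg, the nuclear respiratory factors Nrf1 and Gabpa, and the mitochondrial DNA factors Tfam, Tfb2m and Polg. These 10 genes were chosen with earlier results of these data known. They are 10 of the 35971 mouse genes in the tables, and all 10 were measured in every library and passed the filter on low counts. The 5 annotated transcripts of Ppargc1a were examined as well. RNA came from whole kidneys of mice in 5 groups, and all 5 groups carried the lsl-PRCC-TFE3 knock-in allele, a Cre-dependent copy of a TFE3 fusion gene found in human renal cell carcinoma. In the Cre(-) group (n = 4) the fusion stayed silent; 2 of these kidneys (replicates 1 and 2) also carried HIF1af/f and the other 2 carried no floxed allele. KSP-Cre, which acts in kidney tubule epithelium, switched the fusion on in the remaining 13 kidneys: KI (n = 3), Hif1a KO (KI with HIF1af/f, n = 4), Hif2a KO (KI with HIF2af/f, n = 3) and DKO (KI with both floxed genes, n = 3). The ages of these mice were not given in the labels. Since Cre acts in only part of the kidney, other cells of each sample kept intact alleles. Each kidney was 1 library, and nothing in the labels ties libraries of different groups to a litter or batch; the library numbers of Cre(-), KI and Hif1a KO each formed 1 unmixed run, so library order and genotype cannot be told apart for these groups, while 1 DKO library was numbered among those of Hif2a KO.

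PGC-1 alpha and PGC-1 beta, the products of Ppargc1a and Ppargc1b, bind no DNA themselves. They are docked to promoters by partners such as the estrogen-related receptors (ERR alpha, beta and gamma) and the nuclear respiratory factors NRF1 and GABP, which switch on nuclear genes of the respiratory chain and of mitochondrial DNA upkeep. Among the latter are TFAM, which packages mitochondrial DNA and starts its transcription, TFB2M, which works with the mitochondrial RNA polymerase to open the promoter, and POLG, the catalytic subunit of the mitochondrial DNA polymerase. Tubule epithelium, above all the proximal tubule and the thick ascending limb, is dense in mitochondria because salt and solute transport runs on oxidative phosphorylation.

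Promoter sequence from RefSeq (GRCm38.p6, 250 bases before to 50 after each start) was listed for 9 of the 10 genes, in 14 windows. The following 4 stretches, from 100 bases before to 25 after the start, are shown because these are the members whose windows held a core motif of a nuclear respiratory factor on either strand; capitals mark CCGGAAG (the GABP/ETS core, or its reverse complement) and CGCATGCG (the NRF1 core).
Tfam, chr10:71238020-71238144, minus strand: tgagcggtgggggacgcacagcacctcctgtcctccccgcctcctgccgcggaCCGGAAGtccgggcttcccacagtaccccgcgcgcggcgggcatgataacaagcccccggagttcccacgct
Tfb2m, chr1:179546252-179546376, minus strand: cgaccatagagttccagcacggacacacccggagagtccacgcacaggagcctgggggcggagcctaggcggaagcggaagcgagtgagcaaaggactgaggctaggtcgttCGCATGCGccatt
Gabpa, chr16:84835024-84835148, plus strand: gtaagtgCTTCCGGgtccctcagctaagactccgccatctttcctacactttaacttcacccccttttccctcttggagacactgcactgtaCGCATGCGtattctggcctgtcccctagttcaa
Polg, chr7:79466249-79466373, minus strand: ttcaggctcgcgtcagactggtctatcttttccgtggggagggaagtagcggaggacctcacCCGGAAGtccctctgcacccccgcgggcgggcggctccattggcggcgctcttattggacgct
CCGGAAG began 47 bases before the start of Tfam and 38 bases before that of Polg, and lay on the minus strand in Gabpa; it was found in 8.86% of all 32851 windows. CGCATGCG began 8 bases before the start of Gabpa and 12 bases after that of Tfb2m, against 1.87% of all windows. Tfam and Polg shared the core CCGGAAG, and its part in their expression was not tested. The extended ERR site TNAAGGTCA (1.28% of windows) and the E-box CACGTG (7.15%), a core read by TFE3 and other basic helix-loop-helix factors, matched no window of a member. That search left out Ppargc1b, which had no window. The Ppargc1a window lies at an upstream start, so the start of its main transcript was not searched either. Other E-box forms within TCAYRTGA, the M-box that the study names for MiTF/TFE factors, were not searched for. The hypoxia response core ACGTG, which is also contained in CACGTG, was found in 19.6% of all windows, in 1 of the Esrrg windows and in the Ppargc1a window. These are letter matches and not measured binding sites.

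Kidneys with PRCC-TFE3 expression had lower levels of most of the regulators. Between KI and Cre(-) kidneys, 8 of the 10 genes were lower on the count scale and 2, Nrf1 and Polg, were higher; of these, Gabpa changed sign on the TPM scale (edgeR quasi-likelihood test, Benjamini-Hochberg adjusted p under 0.05 over 17011 genes). The fall ran from 25.9% in Gabpa to 94.8% in Esrrb. This comparison moved much of the transcriptome: 29.3% of all genes tested were called lower, 31.6% higher and 60.9% in either direction. The KI and Cre(-) kidneys did not overlap in CPM (counts scaled to a common library size, with TMM factors) for any of the 10, whereas 56.6% of all genes tested did not overlap. In whole-kidney RNA, fewer cells of a type and less RNA per cell cannot be told apart.

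**Figure D1:**
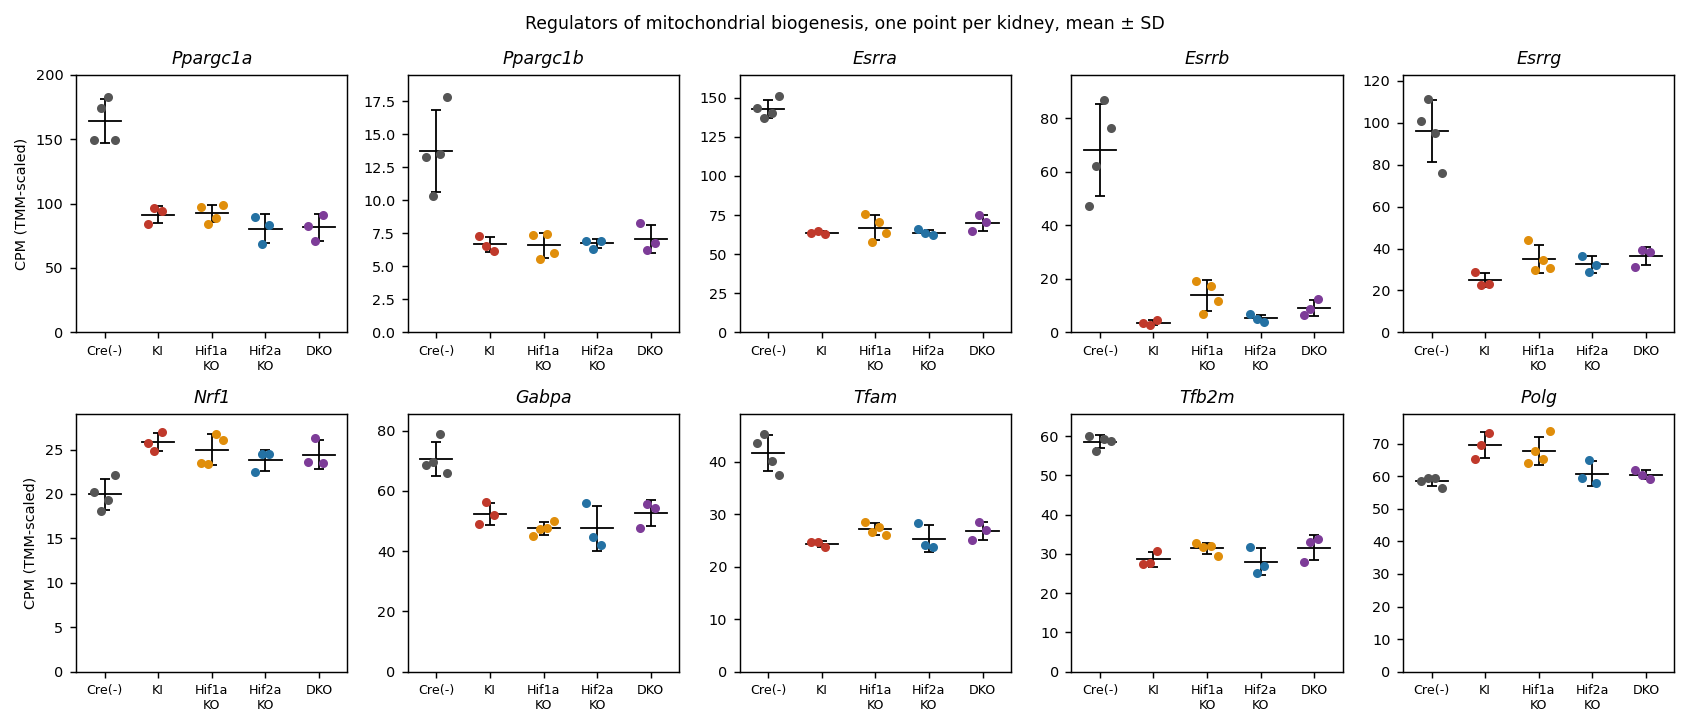
CPM (TMM-scaled, linear axes from 0) of the 10 genes in each kidney, grouped as Cre(-) (n = 4), KI (n = 3), Hif1a KO (n = 4), Hif2a KO (n = 3) and DKO (n = 3), with the mean as a line and the SD as a bar. For 8 genes the Cre(-) points lie above all KI points, for Nrf1 and Polg below them, and Esrrb has the lowest KI level relative to Cre(-).

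Ppargc1a (ENSMUSG00000029167, chr5:51454250-51567726, GRCm38) stood at 149, 174, 183 and 149 CPM without Cre, and at 83.9, 96.4 and 94.3 CPM in KI. It was 68.3 to 98.8 CPM in the 10 kidneys that also lacked a HIF gene, so in CPM every Cre-carrying kidney was below every Cre(-) kidney, as for 20.6% of all genes tested. The log2 fold change of KI against Cre(-) was -0.84 ± 0.11 (SE; edgeR adjusted p = 1.2e-05). In TPM the groups overlapped (25.8 to 38.6 in Cre(-) and 22.0 to 29.2 in KI), and the call was lost in limma on log2(TPM + 1) (-0.33 ± 0.16, adjusted p = 0.084). Ppargc1b (ENSMUSG00000033871, chr18:61298136-61400431), the scarcer coactivator, measured 13.3, 10.3, 13.5 and 17.8 CPM in Cre(-) and 7.30, 6.57 and 6.16 CPM in KI, a log2 fold change of -1.04 ± 0.17 (edgeR adjusted p = 8.4e-05). Neither coactivator gene was called against KI in Hif1a KO, Hif2a KO or DKO kidneys: log2 fold changes were 0.01, -0.18 and -0.17 for Ppargc1a and -0.02, 0.01 and 0.09 for Ppargc1b (edgeR adjusted p from 0.38 to 0.97). For Ppargc1a in Hif1a KO, 1.96 standard errors on either side of the difference spanned -0.21 to 0.23 on the log2 scale.

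The ERR genes fell unequally. Esrrg and Esrrb had larger falls than either coactivator gene, whereas the fall of Esrra was close to that of Ppargc1b. Esrra (ERR alpha, the form widely expressed in oxidative tissues; chr19:6910977-6921813) measured 143, 137, 140 and 151 CPM in Cre(-) and 63.7, 65.0 and 62.6 CPM in KI (log2 fold change -1.16 ± 0.08, edgeR adjusted p = 2.3e-08). Esrrg (ERR gamma; chr1:187608791-188214885) measured 101, 112, 95.3 and 76.1 CPM in Cre(-) and 28.6, 22.6 and 23.2 CPM in KI (-1.95 ± 0.16, edgeR adjusted p = 8.0e-08). Esrrb (ERR beta; chr12:86361117-86521628) measured 47.2, 62.2, 86.6 and 76.5 CPM in Cre(-) and 3.45, 2.69 and 4.51 CPM in KI, a 19.2-fold difference (-4.26 ± 0.38, edgeR adjusted p = 1.6e-07). Esrra ranged over 57.7 to 75.8 CPM in Hif1a KO, 62.3 to 65.9 in Hif2a KO and 64.6 to 74.7 in DKO, around the KI level. In CPM all 13 Cre-carrying kidneys were below all 4 Cre(-) kidneys for each ERR gene, as they were for 20.6% of all genes tested.

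In the edgeR fit of all 17 kidneys, Esrrb and Esrrg were also the only members called between KI and the kidneys lacking HIF genes. DESeq2 added Esrrg in Hif1a KO and Polg in DKO. Of 16988 genes, DESeq2 called 782 higher and 883 lower in Hif1a KO, and 1446 higher and 1459 lower in DKO. In DKO, limma on TPM added Tfb2m and lost Esrrg (adjusted p = 0.059 with a pseudocount of 1). With that pseudocount limma called 1206 genes higher and 520 lower of 17011. In Hif1a KO kidneys Esrrb measured 19.3, 6.91, 17.5 and 11.6 CPM, all above the KI kidneys and all below the Cre(-) kidneys. Hif1a KO and KI kidneys did not overlap for 3 of 10 members and for 19.3% of all genes tested. Esrrb was 3.88-fold higher than in KI (log2 fold change 1.96 ± 0.36, edgeR adjusted p = 0.0097). This was 1 of 10 members called for Hif1a KO against KI, where 5.44% of all genes were called. Esrrg, at 44.3, 29.8, 34.6 and 30.9 CPM in Hif1a KO, lay above the KI kidneys without passing the threshold (0.49 ± 0.16, edgeR adjusted p = 0.078). With only the 7 kidneys of these 2 groups in the fit, Esrrb kept its size (1.97 ± 0.38) but not its call (edgeR adjusted p = 0.052).

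In DKO kidneys Esrrb measured 6.43, 8.80 and 12.4 CPM (2.60-fold above KI, log2 fold change 1.38 ± 0.38, edgeR adjusted p = 0.027) and Esrrg 31.4, 39.1 and 38.6 CPM (0.55 ± 0.17, edgeR adjusted p = 0.040). In CPM, DKO and KI kidneys did not overlap for 4 of 10 members, these 2, Tfam and Polg, against 33.7% of all genes tested. These were 2 of 10 members called, both higher, where 12.7% of all genes were called. Both calls were lost when KI replicate 2 or 3 or DKO replicate 2 or 3 was left out (adjusted p from 0.052 to 0.14), and that of Esrrb also without KI replicate 1 (adjusted p = 0.058), where Polg was called instead (-0.24 ± 0.07, edgeR adjusted p = 0.044).

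In Hif2a KO kidneys Esrrb measured 6.70, 5.12 and 4.05 CPM, overlapping the KI kidneys (0.58 ± 0.38, edgeR adjusted p = 0.42). Esrrg measured 36.7, 28.7 and 32.1 CPM, just above them (0.39 ± 0.16, edgeR adjusted p = 0.21); 20.2% of all genes did not overlap between these groups. None of the 10 members was called for Hif2a KO against KI by edgeR or by DESeq2, where 1.39% of all genes were called in edgeR. At an unadjusted p under 0.05 in edgeR there were 2 of 10 members and 19.2% of all genes. The 3 groups lacking HIF genes share the KI kidneys as their reference, so their differences from KI are not independent.

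Set directly against each other, the groups lacking HIF genes gave no called member in edgeR. Esrrb was higher in each Hif1a KO kidney than in each Hif2a KO kidney (log2 difference 1.38 ± 0.34), with an adjusted p of 0.087 in edgeR. DESeq2 called it. Of all genes, 0.429% were called in edgeR, whereas DESeq2 called 340 higher and 197 lower of 16988. These groups did not overlap for 1 member, Esrrb, and for 15.1% of all genes. At an unadjusted p under 0.05 there were 2 members and 14.9% of all genes. For DKO against Hif1a KO 0.406% of all genes were called, and for DKO against Hif2a KO 0.00588%; DESeq2 called no member in either. At an unadjusted p under 0.05 there was 1 member in each, Polg and Esrrb respectively, against 13% and 5.58% of all genes. The test of whether the difference made by Hif1a loss changed with Hif2a loss called 0 members and 0% of all genes in edgeR. DESeq2 called no member in that test either, and 1 member, Esrrb, had an unadjusted p under 0.05, against 5.95% of all genes (interaction -1.16 ± 0.50, edgeR adjusted p = 0.81).

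**Figure D2:**
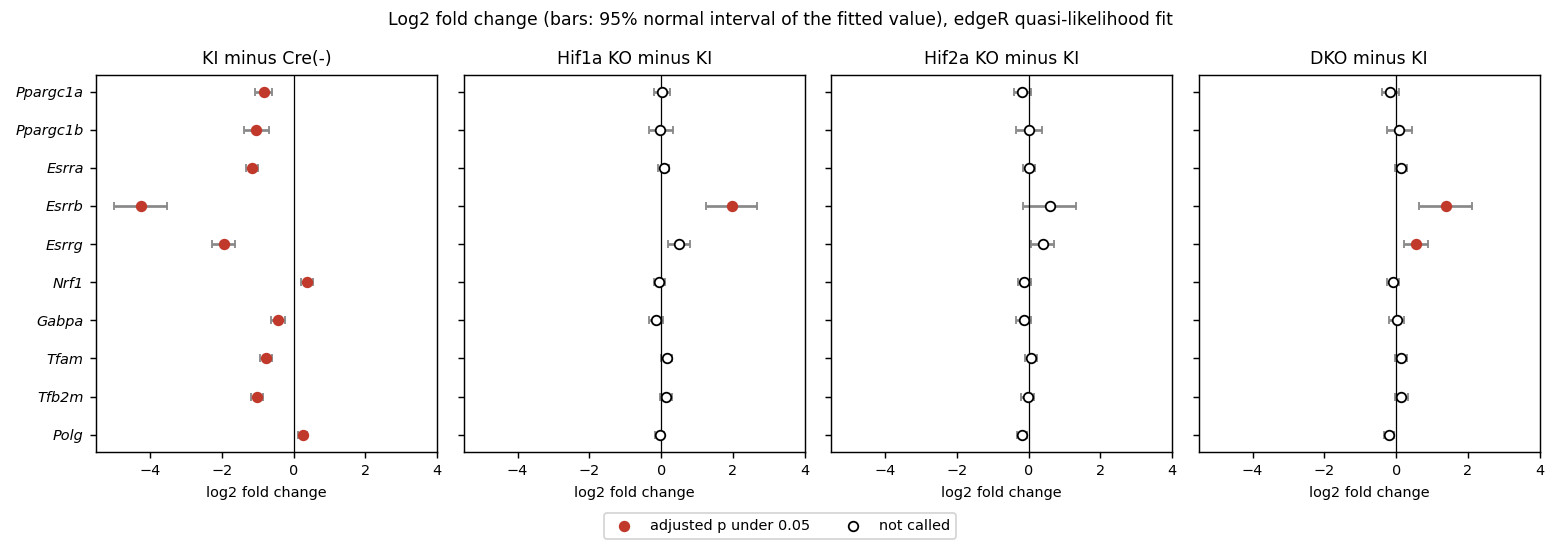
Log2 fold change of the 10 genes (rows) in 4 comparisons (panels), from the edgeR fit of 17 kidneys, with bars of 1.96 standard errors either way; filled points passed an adjusted p under 0.05. All 10 points are filled for KI minus Cre(-), Esrrb alone for Hif1a KO minus KI, none for Hif2a KO minus KI, and Esrrb and Esrrg for DKO minus KI.

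The makeup of the ERR family is described here by group, without a test. TPM values, which scale for transcript length and sum to a common total, allow levels of different genes to be set side by side. Of the summed TPM of the 3 ERR genes, Esrra held 66.9% ± 3.7 (SD, n = 4) in Cre(-) and 85.1% ± 2.2 (n = 3) in KI. Esrrb held 14.7% ± 3.2 in Cre(-) and 2.04% ± 0.49 in KI, and these groups did not overlap. Its share was 7.10% ± 2.3 in Hif1a KO (n = 4), 2.94% ± 0.73 in Hif2a KO (n = 3) and 4.52% ± 1.3 in DKO (n = 3). Esrrg held 18.5% ± 3.6 in Cre(-) and 12.9% ± 2.0 in KI, where the ranges overlapped (13.6 to 22.3% and 10.9 to 14.9%). The summed TPM of the family itself was 118 to 133 in Cre(-) and 60.5 to 69.2 in KI.

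**Figure D3:**
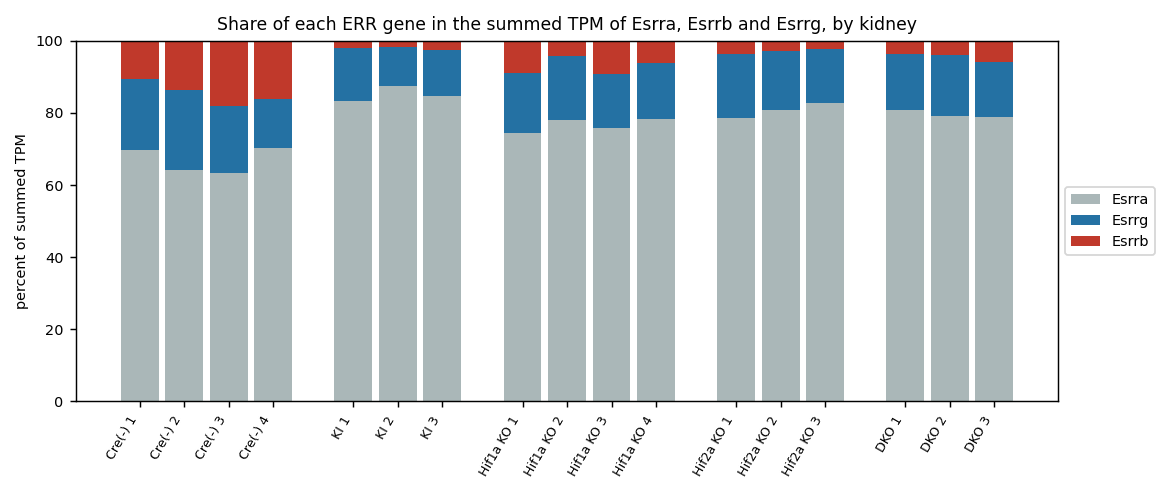
Percent of the summed TPM of Esrra, Esrrg and Esrrb held by each gene (y axis) in each of the 17 kidneys (bars, grouped by genotype). The Esrrb segment spans 10.7 to 18.1% in Cre(-), 1.60 to 2.57% in KI and 4.23 to 9.10% in Hif1a KO.

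The nuclear respiratory factors moved in opposite directions. Nrf1 (chr6:30047988-30153458), whose product binds promoters of respiratory chain genes, measured 20.2, 18.0, 19.3 and 22.2 CPM in Cre(-) and 25.8, 24.9 and 26.9 CPM in KI (log2 fold change 0.38 ± 0.08, edgeR adjusted p = 0.00094). Gabpa (the DNA-binding subunit of GABP, also called NRF2; chr16:84834925-84863779) measured 68.5, 69.7, 78.8 and 65.9 CPM in Cre(-) and 49.0, 56.3 and 51.9 CPM in KI (-0.43 ± 0.10, edgeR adjusted p = 0.0012; the sign turned on the TPM scale). In Hif1a KO, Hif2a KO and DKO, Nrf1 ranged over 23.4 to 26.8, 22.5 to 24.5 and 23.4 to 26.3 CPM, and Gabpa over 45.0 to 50.2, 42.0 to 55.9 and 47.6 to 55.7 CPM. Neither was called between KI and any group lacking a HIF gene (adjusted p from 0.43 to 0.98).

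Among the mitochondrial DNA factors, Tfb2m and Tfam were lower and Polg was higher in KI. Tfam (chr10:71225464-71238280) measured 43.5, 45.2, 40.1 and 37.5 CPM in Cre(-) and 24.7, 24.7 and 23.7 CPM in KI (log2 fold change -0.77 ± 0.08, edgeR adjusted p = 8.8e-07). Tfb2m (chr1:179528055-179546267) measured 60.1, 56.3, 59.3 and 58.8 CPM in Cre(-) and 27.5, 27.6 and 30.8 CPM in KI (-1.03 ± 0.09, edgeR adjusted p = 9.0e-08). Polg (chr7:79446231-79466362) had the smallest change of the members on the count scale, at 58.5, 59.5, 59.4 and 56.2 CPM in Cre(-) and 65.4, 69.7 and 73.4 CPM in KI (0.25 ± 0.06, edgeR adjusted p = 0.0030). In limma on log2(TPM + 1) its difference was 0.71 ± 0.13, larger in size than those of Tfam, Gabpa, Ppargc1a, Ppargc1b, Esrra and Tfb2m. The median gene was itself 0.38 higher on that scale. Relative to it Polg was at 0.34, larger in size than Gabpa (-0.27) only among these. Tfam was at -0.48, Ppargc1a at -0.71, Ppargc1b at -0.78, Esrra at -0.98 and Tfb2m at -0.99. Polg measured 64.1 to 73.8 CPM in Hif1a KO, around the KI level, 58.0 to 65.1 CPM in Hif2a KO and 59.2 to 61.9 CPM in DKO. In Hif1a KO, Hif2a KO and DKO, Tfam ranged over 26.0 to 28.4, 23.7 to 28.2 and 24.99 to 28.5 CPM, and Tfb2m over 29.6 to 32.7, 25.2 to 31.9 and 27.9 to 33.7 CPM. In edgeR, Tfam and Tfb2m in the groups lacking HIF genes were within 0.16 of KI on the log2 scale (adjusted p from 0.27 to 0.88). In limma on log2(TPM + 1), Tfb2m was higher than in KI in DKO (0.37 ± 0.10, adjusted p = 0.026) and at 0.30 ± 0.09 in Hif1a KO (adjusted p = 0.079).

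Against Cre(-), each group lacking a HIF gene showed the same directions as KI in edgeR. All 10 members were called in Hif1a KO (8 lower and 2 higher, with 61.9% of all genes called). For Hif2a KO (61.9% of all genes) and DKO (58.3%), 9 were called, 8 lower and Nrf1 higher, and Polg was not (log2 fold changes 0.06 ± 0.06 and 0.05 ± 0.06). Over the alternatives, Gabpa in Hif2a KO and DKO and Tfam in DKO changed sign, with highest values of 0.04, 0.22 and 0.11. The Esrrb difference from Cre(-) was -2.30 ± 0.30 in Hif1a KO, -3.68 ± 0.36 in Hif2a KO and -2.89 ± 0.34 in DKO. These comparisons share the 4 Cre(-) kidneys with each other and with that of KI.

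On the TPM scale the picture shifted, and the direction of some members depended on it. TPM sum to a fixed total, and transcripts of the mitochondrial genome made up 31.8 to 36.4% of it in Cre(-) but 15.2 to 15.7% in KI (19.1 to 23.1% and 8.68 to 8.85% of the counts). With limma on log2(TPM + 1), the median gene was 0.38 higher in KI than in Cre(-), against 0.03 in the count fit, and 8843 genes were called higher and 2458 lower, in place of 5381 and 4981. On that scale 7 of the 10 members were called: Ppargc1a (-0.33) and Tfam (-0.10) were lower without passing, and Gabpa turned to 0.11. Relative to the median gene these were -0.71, -0.48 and -0.27. TPM were also recomputed outside the mitochondrial genome, an alternative chosen after the data were seen. The median gene was then 0.14 higher and 9 members were called, in the directions of the count fit. Gabpa (-0.25) was not called. Of 16998 genes, 5669 were called higher and 3856 lower in that fit.

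By TPM the most abundant member in Cre(-) was Esrra (84.4 ± 1.6, SD, n = 4), followed by Tfam (45.0 ± 2.6), Gabpa (36.9 ± 8.1), Tfb2m (34.1 ± 2.1), Ppargc1a (31.2 ± 5.7), Polg (30.2 ± 1.8), Esrrg (23.5 ± 5.3), Esrrb (18.7 ± 4.7), Nrf1 (8.40 ± 0.75) and Ppargc1b (4.24 ± 0.79). Esrra stood clear of all other members; from Tfam down to Esrrb, neighbours in this order overlapped between kidneys, and Nrf1 and Ppargc1b each lay below the gene before it without overlap. In KI the order was Esrra (55.4 ± 3.6, n = 3), Polg (50.6 ± 8.6), Tfam (41.9 ± 3.7), Gabpa (39.3 ± 2.5), Ppargc1a (24.5 ± 4.0), Tfb2m (21.9 ± 0.3), Nrf1 (16.5 ± 0.4), Esrrg (8.40 ± 1.7), Ppargc1b (2.94 ± 0.23) and Esrrb (1.32 ± 0.25). Esrrb thus went from the eighth place to the last, below Ppargc1b in every KI kidney, while Polg moved up to overlap Esrra. In KI, Polg also overlapped Tfam, Tfam overlapped Gabpa and Ppargc1a overlapped Tfb2m, and the other neighbours did not overlap.

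The transcripts of Ppargc1a were next compared. Most of its signal in every kidney was assigned to Ppargc1a-203 (protein-coding, start at base 51553922 of chr5, minus strand), with 65.3 to 96.5% of the summed TPM and a mean of 79.2%. The protein-coding Ppargc1a-205 held a mean of 10.1%, and its start lies 31 bases downstream of that of Ppargc1a-203. Ppargc1a-204, annotated for nonsense-mediated decay, held a mean of 9.23% and starts 13782 bases upstream. Ppargc1a-201 was under 1 estimated count in 12 of 17 kidneys, and Ppargc1a-202, which starts 13804 bases upstream, was listed at 0 in all 17. The RefSeq window for Ppargc1a lies at this upstream start and is shown because it is the region that Ppargc1a-202 and Ppargc1a-204 start from; capitals mark the reverse complement of ACGTG, 51 bases before the start.
Ppargc1a, chr5:51567701-51567825, minus strand: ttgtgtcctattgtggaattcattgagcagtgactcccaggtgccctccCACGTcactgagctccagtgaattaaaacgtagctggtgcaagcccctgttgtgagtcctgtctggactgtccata
With single-end reads, the split of reads among transcripts that share exons is an estimate whose error the tables do not give.

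Ppargc1a-203 measured 23.8, 31.6, 27.2 and 22.4 TPM in Cre(-) and 19.1, 19.8 and 20.2 TPM in KI. In the fit of 52434 transcripts it was the only one of the 5 called between KI and Cre(-) (log2 fold change -0.84 ± 0.11, edgeR adjusted p = 5.7e-05), where 24.3% of all transcripts were called. Ppargc1a-205 ranged from 0 to 7.07 TPM in Cre(-) and from 1.79 to 6.56 in KI, and Ppargc1a-204 from 0.72 to 4.37 in Cre(-) and from 0 to 2.81 in KI, so both groups overlapped for each. With KI replicate 2 left out, Ppargc1a-204 was called as well, and with the Cre(-) kidneys limited to the 2 with the floxed Hif1a allele, where Ppargc1a-205 was listed at 0, that transcript was. Ppargc1a-204 held 15.7 to 19.4% of the summed TPM in Hif2a KO, the group with the narrowest range. The shares of the 3 main transcripts did not differ detectably between KI and Cre(-): 81.7% ± 12.4 against 84.8% ± 11.8 for Ppargc1a-203 (exact permutation test, two-sided, adjusted p = 0.74), and adjusted p = 0.34 for both others. With 3 against 4 kidneys this test cannot go below 0.057. All 13 Cre-carrying kidneys against the 4 Cre(-) kidneys gave adjusted p from 0.32 to 0.78 in the same exact test.

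The surrounding pathway was described by 4 gene lists. Of 18 further genes of mitochondrial DNA upkeep and transcription, 13 were lower and none was higher in KI than in Cre(-) (edgeR; median log2 fold change -0.49, against 0.03 over all genes, of which 29.3% were lower and 31.6% higher). The largest of these changes was that of Top1mt, the mitochondrial topoisomerase (-1.62 ± 0.17), and the smallest that of Mterf3 (-0.44 ± 0.08). Polrmt, the mitochondrial RNA polymerase, was at -0.47 ± 0.07 and Polg2, the accessory subunit of POLG, at -0.66 ± 0.14, opposite in sign to Polg. In Hif1a KO and in DKO, 1 of the 18, Primpol (a mitochondrial and nuclear primase-polymerase), was higher than in KI (0.45 ± 0.13 and 0.59 ± 0.13), where 5.44% and 12.7% of all genes were called in either direction. None was called in Hif2a KO.

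Of 20 partners and regulators of the PGC-1 coactivators, 8 were higher, 7 lower and 5 not called in KI against Cre(-), with a median of 0.04; 31.6% of all genes were higher and 29.3% lower. Pprc1, the third member of the coactivator family, was the highest (1.16 ± 0.15, edgeR adjusted p = 8.0e-06), in the opposite direction to Ppargc1a and Ppargc1b. The lowest was Perm1, a regulator induced by PGC-1 and ERR in muscle (-2.80 ± 0.24). The smallest of the called changes was that of Prkaa1 (0.24 ± 0.08), a catalytic subunit of AMP-activated kinase, whereas Prkaa2, the alternative subunit, was at -1.37 ± 0.11. None of the 20 was called in Hif1a KO, Hif2a KO or DKO against KI.

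All 20 nuclear genes of oxidative metabolism known to be bound by ERR or nuclear respiratory factors were lower in KI (median -1.18), from Cox4i1, a subunit of cytochrome c oxidase (-0.29 ± 0.11), to Acadm, the medium-chain acyl-CoA dehydrogenase of fat oxidation (-2.91 ± 0.20), where 29.3% of all genes were lower. Against the same 29.3%, all 13 protein-coding genes of the mitochondrial genome were lower as well (median -1.63), from mt-Co2 (-1.19 ± 0.27) to mt-Nd2 (-2.42 ± 0.19). Against KI, none of the 20 nuclear genes was called in any group lacking a HIF gene. Of the 13 mitochondrial genes, mt-Nd2 (0.67 ± 0.18) and mt-Nd4l (0.70 ± 0.18) were higher in Hif1a KO (edgeR adjusted p = 0.040 and 0.033; median of the 13 0.34), where 5.44% of all genes were called, and none in Hif2a KO or DKO. These lists were chosen with earlier results of these data known, and their counts are descriptions.

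Markers of kidney cell types moved with these genes. The summed CPM of 10 proximal tubule markers was 16289 to 18358 in Cre(-) and 1042 to 1369 in KI, with 10 of 10 called lower. The sum of 4 thick ascending limb markers was 5370 to 6979 and 838 to 1489, with 4 of 4 lower. The sum of 5 leukocyte markers was 26.2 to 30.7 in Cre(-) and 1164 to 1180 in KI, with 4 of 5 higher. Distal convoluted tubule (3 of 3) and podocyte markers (3 of 3) were lower, of 7 collecting duct markers 6 were lower and 1 higher, and 1 of 3 endothelial markers was lower. Of all genes tested, 29.3% were called lower and 31.6% higher in this comparison. No defining marker of these types was at 0 in every kidney of a group. Their part in the differences of the 10 regulators was not tested.

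Some tubule markers were also higher than in KI in the groups where Esrrb was higher. The proximal tubule sum was 1588 to 3667 in Hif1a KO, 1149 to 3018 in Hif2a KO and 1912 to 3016 in DKO, with 4, 0 and 5 of the 10 markers called higher than in KI. The thick ascending limb sum was 2103 to 4309, 1951 to 3614 and 2690 to 4434, with 2, 1 and 3 of 4 called higher. Of all genes tested, 2.6%, 0.74% and 6.53% were called higher than in KI in these groups. Within Hif1a KO, the kidney with the most Esrrb (replicate 1, 19.3 CPM) had the largest sums of both (3667 and 4309), and that with the least (replicate 2, 6.91 CPM) the smallest (1588 and 2103). This order held only in part in DKO and Hif2a KO. In DKO the kidney with the most Esrrb was replicate 3 (12.4 CPM; sums of 2479 and 3801) and that with the largest sums replicate 2 (8.80 CPM; 3016 and 4434). In Hif2a KO the kidney with the least Esrrb was replicate 3 (4.05 CPM; 1307 and 2070) and that with the smallest sums replicate 2 (5.12 CPM; 1149 and 1951). Leukocyte sums were 555 to 782, 756 to 848 and 438 to 683. The part of these markers in the Esrrb and Esrrg differences was not tested. KI replicate 2 stood apart in 7 adipocyte markers (773 CPM in sum, against 56.7 and 86.2 in the other KI kidneys). Without it all 10 members were still called between KI and Cre(-), where 4891 genes were called higher and 4551 lower of 17275. Muscle markers summed to between 1.61 and 4.04 CPM in all 17 kidneys, with 1 of 4 at 0 in every kidney of each Cre-carrying group.

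Hif1a and Epas1 (the gene of Hif2a) check the labels only in part, since whole-gene counts do not isolate the floxed exons. Hif1a measured 163 to 198 CPM in Hif1a KO and 174 to 203 CPM in DKO, both overlapping KI (184 to 232 CPM). Epas1 measured 136 to 149 CPM in Hif2a KO and 156 to 165 CPM in DKO, both below KI (173 to 192 CPM). Hif1a KO kidneys, without a floxed Hif2a allele, measured 163 to 179 CPM and overlapped both DKO and KI. In TPM, DKO (45.9 to 47.5) overlapped KI (46.7 to 55.0), and Hif2a KO (40.4 to 44.0) lay below it. Library totals ran from 16504419 to 24668827 estimated counts, and 3 counts corresponded to 0.117 to 0.206 CPM, far under the lowest level of any member (2.69 CPM, Esrrb).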

How the data were processed

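Poly(A) RNA from 17 kidneys was prepared with a stranded kit and read from a single end (75 nt). The submitters' processing notes name Trim Galore 0.6.6, cutadapt 2.5 and STAR 2.7.9a, with hg38 and GRCm38 as builds; the study's methods name RSEM. The authors deposited expected counts (unnormalized estimates) and TPM for each transcript, made from the aligned reads; the tables list mouse transcripts. Of 119353 transcripts, 116770 were matched to GENCODE M21 and summed to 35971 genes; the 2583 others were left out (99.0 to 99.2% of counts were kept). Expected counts were rounded and tested in 1 fit of all kidneys by group (R 4.3.3, edgeR 4.0.16, TMM, filterByExpr with a minimum count of 10, quasi-likelihood test, Benjamini-Hochberg over 17011 genes, threshold 0.05). CPM carry TMM factors. DESeq2 1.42.0, its size factors, no filter, limma 3.58.1 on log2(TPM + 1) and log2(TPM + 0.1), fewer groups, the replicate number as a block, the Cre(-) subgroups, leaving out the mitochondrial genome and leaving out each kidney were alternatives. The fits were also run on simulated counts in which only a small part of the genes was changed, in KI alone. That setting differs from KI against Cre(-), where much of the transcriptome was called, so it does not check the scaling there. Replicates are separate samples by their labels. The edgeR p-values set each group difference against a spread between kidneys that is estimated from all 17 libraries and partly shared across genes. The named genes are the 10 regulators, the Ppargc1a transcripts, the targeted genes, the 5 genes most correlated with Ppargc1a and the extremes of each list; Polrmt, Polg2 and Prkaa2 were added after their values were seen. Members and lists were chosen with earlier results of these data known.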

Additional observations from a re-analysis of the deposited data

How the results depend on the processing

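All 10 members stayed called between KI and Cre(-) under the alternatives on counts, and 7 to 9 on the TPM scale. These fits also called much of the transcriptome. DESeq2 called 5331 genes higher and 5055 lower of 16988, and limma on log2(TPM + 1) 8843 higher and 2458 lower of 17011. For Hif1a KO against KI, DESeq2 called 2 members, the fit of only these groups 0, and leaving out 1 kidney gave 1 to 2 (2 without Hif1a KO replicate 2, where Esrrg passed). Over all genes, DESeq2 called 782 higher and 883 lower of 16988, and the fit of only these groups 112 and 134 of 16088. Without Hif1a KO replicate 2, 574 were higher and 595 lower of 16963. For DKO against KI leaving out 1 kidney gave 0 to 2 (without KI replicate 1 these were Esrrg and Polg, in place of Esrrb and Esrrg). Without that kidney 1165 genes were called higher and 1126 lower of 17291. For Hif1a KO against Hif2a KO DESeq2 called 1 and leaving out 1 kidney gave 0 to 1 (1 without Hif1a KO replicate 2). There DESeq2 called 340 genes higher and 197 lower of 16988, and the fit without that kidney 35 and 13 of 16963. Of the Ppargc1a transcripts, 2 were called between KI and Cre(-) with the floxed Cre(-) kidneys only, and 1 to 2 on leaving out a kidney. The share difference of Ppargc1a-204 between Cre-carrying and Cre(-) kidneys ranged from -0.735 to 2.38 points on leaving out a kidney, and was negative without Cre(-) replicate 2.

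Changes of sign were seen among values that were not called, and among a few called in edgeR against Cre(-). Gabpa in KI against Cre(-) was 0.11 in both TPM fits. Against Cre(-), the highest values over the alternatives were 0.22 for Gabpa and 0.11 for Tfam in DKO, and 0.04 for Gabpa in Hif2a KO. On the TPM scale, the log2 fold change was -0.04 for Esrra in Hif1a KO against KI; in Hif2a KO against KI it was -0.02 for Tfam, 0.12 and 0.13 for Tfb2m and 0.02 for Polg; without the mitochondrial genome it was 0.01 for Ppargc1b in Hif1a KO, and in Hif2a KO -0.01 for Tfam, 0.14 for Tfb2m and 0.03 for Polg. Leaving out 1 kidney, it ranged in Hif1a KO against KI from -0.05 to 0.05 for Ppargc1a, from -0.08 to 0.05 for Ppargc1b and from -0.09 to 0.00 for Polg. In Hif2a KO against KI it ranged from -0.04 to 0.08 for Ppargc1b, from -0.02 to 0.02 for Esrra, from -0.03 to 0.10 for Tfam and from -0.14 to 0.04 for Tfb2m. In DKO against KI it ranged from -0.04 to 0.17 for Ppargc1b and from -0.04 to 0.07 for Gabpa. The cause was not tested.

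Same-numbered kidneys of different groups had different genotypes and so came from different mice. Deviations from the group means correlated between same-numbered kidneys from -0.22 to 0.25 (4 of 31 pairs above 0.1). Between differently numbered kidneys they correlated from -0.36 to 0.25 (13 of 84 pairs above 0.1). With the replicate number as a block, 10 members were called for KI against Cre(-), 1 for Hif1a KO, 0 for Hif2a KO and 2 for DKO against KI, as without it. Of all 17011 genes, the block fit called 5090 higher and 4777 lower for KI against Cre(-). Against KI it called 237 higher and 242 lower for Hif1a KO, 47 and 29 for Hif2a KO, and 914 and 798 for DKO.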

Other observations

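The genes whose log2 CPM followed Ppargc1a most closely over all 17 kidneys were Fam210a (Pearson r = 0.98), Ahcyl2 (0.98), Tax1bp1 (0.98), Opa1 (0.97) and Clcn3 (0.97). Opa1 encodes the GTPase that fuses mitochondrial inner membranes. Over the 17 kidneys r with Ppargc1a was 0.83 to 0.92 for the 7 other members that were lower in KI, -0.82 for Nrf1 and -0.37 for Polg. These values are descriptions in which the gap between Cre(-) and the other kidneys weighs heavily. Over the 13 Cre-carrying kidneys alone, the members lay between -0.09 and 0.41. The genes most like Ppargc1a there were Gsta4 (0.91), Gsta3 (0.90), Slc25a32 (0.88), Eci1 (0.88) and Opa1 (0.87). Gsta3 and Gsta4 encode glutathione S-transferases, Slc25a32 a mitochondrial folate and flavin carrier and Eci1 an isomerase of mitochondrial fatty acid oxidation. Opa1 was the gene that stood among the closest 5 in both sets.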
